A study of Mus musculus with 24 samples.

Results

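The subject is a module of 37 mouse genes of the NRF2, glutathione and antioxidant system, followed across keratinocytes that differ in PPAR-beta, in activated Hras and in a PPAR-beta ligand. The members were named by gene symbol, with earlier results of these data known, although naming by symbol uses no measured value. Of the 37, 35 were measured among 19937 genes, each by its probe set with the highest mean. G6pdx and Prdx6 were not analysed here. Keratinocytes, which make up most of the epidermis, were taken in primary culture from Ppar-beta null mice and from wild-type mice, all labelled strain C57/BL6, and were cultured for 2 days before infection. They carried an activated Hras retrovirus for 48 hours or were mock transduced, and received 1 uM GW0742, a synthetic PPAR-beta agonist, for 24 hours or the vehicle DMSO. The 8 groups of 3 arrays each were null Hras GW0742, null Hras DMSO, wild-type Hras GW0742, wild-type Hras DMSO, null mock GW0742, null mock DMSO, wild-type mock GW0742 and wild-type mock DMSO. The labels do not say whether mock cells received an empty virus, which part of Ppard was deleted, how old the mice were, or whether replicates came from separate animals or cultures. The p-values therefore reflect the spread among these arrays alone, and that spread may be technical.

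NRF2, encoded by Nfe2l2, is a transcription factor that KEAP1 holds in the cytoplasm and marks for degradation. Oxidants and electrophiles modify KEAP1, NRF2 then enters the nucleus, and with a small MAF protein it binds antioxidant response elements in genes for glutathione synthesis, thioredoxin reduction, NADPH supply and detoxification. In the epidermis this system helps keratinocytes withstand ultraviolet light and reactive chemicals. BACH1 competes with NRF2 at some of these elements and is known as a repressor of Hmox1.

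All values are log2 expression from the arrays, and changes are differences on that scale ± standard error, taken from a limma model of all 24 arrays, called at an adjusted p under 0.05 over all genes. Ppard, the targeted gene, was lower in null cells, with null minus wild-type differences of -0.57 ± 0.06 in mock cells and -0.28 ± 0.06 in Hras cells (limma, adjusted p = 1.53e-06 and 0.00194). Because the deleted exons are not known here, these levels are no test of the genotype labels. The mean log2 expression over 10 keratinocyte markers (among them Krt5, Krt14 and Trp63) was 12.35 to 12.57 on Hras arrays, against 12.73 to 12.82 on mock arrays. Replicates varied most in the null Hras GW0742 group, with a median SD over genes of 0.122, against 0.0647 to 0.0798 in the other groups. Fewer cells of a type and less RNA per cell cannot be told apart in such bulk samples.

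The members differed in how far their levels ranged over the 8 groups, and the same range was not computed over all genes. The span between the highest and the lowest group mean had a median of 0.53 over the 35 genes, exceeded 1 for 8 genes and stayed under 0.3 for 6. Gsta4, a glutathione transferase that conjugates the lipid peroxidation product 4-hydroxynonenal, had the widest span at 3.76, and Cbr3, a carbonyl reductase, followed at 1.52. Gstm1 (1.21), Slc7a11 (1.17), Mgst1 (1.13), Hmox1 (1.11), Gsr (1.11) and Mgst2 (1.09) came next. Txn1, which encodes thioredoxin, had the narrowest at 0.09. Txn1, Prdx1, Gpx2 and Aldh3a1 were called in none of the 12 comparisons. Under some alternatives to this fit Txn1 did pass, such as for Hras in wild-type cells with the arrays centred (0.12, limma, adjusted p = 0.0244).

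RefSeq promoter windows of GRCm38.p6, from 250 bases before to 50 bases after a transcript start, were matched for 30 of the 35 measured genes. Gsta4, Gsr, Hmox1, Gclc and Aldh3a1 had no window. The core of the antioxidant response element, TGACNNNGC, was searched on both strands, together with the AP-1 motif TGANTCA. The core was found in 10 of the 38 windows of these 30 genes (26.3%), against 4071 of 32851 windows of all genes (12.4%), and the AP-1 motif in 5 (13.2%) against 2565 (7.81%). A match is a description of letters and not a binding site. A window each of Txnrd1, Gclm, Srxn1 and Mgst1 is shown because it holds a core match while the genes' levels moved in different ways with Hras. Txnrd1 and Mgst1 also have windows at other transcript starts, which hold no core match and are not shown. Each is on the plus strand, 5′ to 3′, with matches to either motif in capitals.
Txnrd1, chr10:82858956-82859255: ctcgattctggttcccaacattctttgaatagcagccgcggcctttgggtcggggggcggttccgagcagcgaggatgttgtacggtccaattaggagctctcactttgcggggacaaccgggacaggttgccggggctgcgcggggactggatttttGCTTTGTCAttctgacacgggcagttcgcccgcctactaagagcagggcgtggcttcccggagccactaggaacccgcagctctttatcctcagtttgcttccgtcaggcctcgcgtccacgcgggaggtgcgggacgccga
Gclm, chr3:122245307-122245606: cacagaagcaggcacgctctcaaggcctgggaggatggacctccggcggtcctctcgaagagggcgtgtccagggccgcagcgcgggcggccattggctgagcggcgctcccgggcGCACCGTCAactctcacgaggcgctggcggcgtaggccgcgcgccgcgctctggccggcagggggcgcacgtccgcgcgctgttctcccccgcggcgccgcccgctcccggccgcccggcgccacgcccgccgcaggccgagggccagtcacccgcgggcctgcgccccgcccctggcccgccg
Srxn1, chr2:152105274-152105573: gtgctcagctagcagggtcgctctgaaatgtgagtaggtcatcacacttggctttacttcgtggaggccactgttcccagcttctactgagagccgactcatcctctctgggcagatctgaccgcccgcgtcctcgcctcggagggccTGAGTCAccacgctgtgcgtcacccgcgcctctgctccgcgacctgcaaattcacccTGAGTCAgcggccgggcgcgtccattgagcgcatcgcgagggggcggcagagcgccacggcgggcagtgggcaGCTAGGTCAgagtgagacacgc
Mgst1, chr6:138140277-138140576: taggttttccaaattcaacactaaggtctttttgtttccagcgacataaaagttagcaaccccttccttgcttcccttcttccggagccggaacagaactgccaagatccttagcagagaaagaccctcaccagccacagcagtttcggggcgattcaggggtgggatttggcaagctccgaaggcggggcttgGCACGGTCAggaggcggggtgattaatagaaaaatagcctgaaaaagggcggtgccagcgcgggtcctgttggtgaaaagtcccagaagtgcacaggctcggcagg
In the windows shown, the core match begins 92 bases before the start in Txnrd1, 134 before in Gclm, 56 before in Mgst1 and 29 after it in Srxn1. All 4 matches lie on the minus strand. Srxn1 also holds AP-1 matches 102 and 45 bases before its start, which do not overlap its core match. In Prdx1 the core match and an AP-1 match overlap, and Prdx1 was called in no comparison.

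The question of the first comparison was what activated Hras changed in wild-type cells with DMSO. The module split into genes that rose and genes that fell: 10 of the 35 rose, 14 fell and 11 did not pass. Gsta4 rose 9.7-fold, and the glutathione reductase gene Gsr, which returns oxidised glutathione to its reduced form, rose 2.08-fold. Cbr3 fell 2.83-fold and the transferase Gstm1 2.16-fold. The 24 called genes are 68.6% of the members, where 37.4% of all genes were called (18.4% higher and 19% lower). The 40% dimmest genes hold only 2 members, and brighter genes were called more often. With those 40% left out, 23 members were called, and 3421 of 11962 genes were higher and 3561 lower. The share of members was then still above that of the genes kept, but by much less. The members' median change was -0.01 and that of all genes 0.02.

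Gsta4 had a log2 expression of 11.28, 11.53 and 11.64 in wild-type Hras DMSO cells, against 8.37, 8.11 and 8.13 in wild-type mock DMSO cells. All Hras arrays lay far above all mock arrays, a change of 3.28 ± 0.12 (limma, adjusted p = 2.1e-15). Gsr had 10.54, 10.55 and 10.51 in wild-type Hras cells, against 9.49, 9.41 and 9.51 in wild-type mock cells, and its groups did not overlap (1.06 ± 0.05, limma, adjusted p = 5.21e-13). Cbr3 had 6.44, 6.69 and 6.62 in wild-type Hras cells, against 8.06, 8.19 and 8.01 in wild-type mock cells, a change of -1.50 ± 0.10 (limma, adjusted p = 2.88e-11). Cbr1, the protein-coding gene next to Cbr3 on chromosome 16, fell by only 0.24 ± 0.06 on the log2 scale. Gstm1 had 7.93, 8.10 and 7.89 in wild-type Hras cells, against 9.12, 9.11 and 9.01 in wild-type mock cells, and all Hras arrays were lower (-1.11 ± 0.09).

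Both microsomal or mu-class transferases that came next in size fell. Mgst2 had 7.94, 8.19 and 8.09 in wild-type Hras cells, against 8.76, 8.78 and 8.76 in wild-type mock cells (-0.70 ± 0.11). Gstm5, in the same gene cluster as Gstm1 on chromosome 3, had 8.69, 8.67 and 8.64 in wild-type Hras cells, against 9.40, 9.40 and 9.27 in wild-type mock cells (-0.69 ± 0.09). The Gstm and Gsta genes are close paralogs, so their probe sets may share signal. The next genes all rose, and in none did the groups overlap. Tkt, the transketolase of the pentose phosphate pathway, had 10.09, 9.92 and 9.9996 in wild-type Hras cells, against 9.46, 9.33 and 9.32 in wild-type mock cells (0.63 ± 0.06). Gsto1, an omega-class transferase, had 13.06, 13.01 and 13.01 in wild-type Hras cells, against 12.39, 12.39 and 12.44 in wild-type mock cells (0.62 ± 0.05). Txnrd1, the thioredoxin reductase of the cytosol, had 10.14, 9.99 and 10.15 in wild-type Hras cells, against 9.51, 9.52 and 9.56 in wild-type mock cells (0.56 ± 0.07). The fall of Nqo1, a quinone reductase often read as a marker of NRF2 activity, completed the 10 largest changes. It had 7.09, 7.07 and 7.07 in wild-type Hras cells, against 7.72, 7.53 and 7.59 in wild-type mock cells (-0.54 ± 0.10, limma, adjusted p = 0.000178).

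By role, the changes in wild-type cells were mixed within most groups. Of the regulators, Keap1 fell (-0.24 ± 0.05) and Nfe2l2 did not pass (0.05). In glutathione supply Gsr and the glutathione synthetase gene Gss (0.35 ± 0.07) rose. Gclm and Gclc, the modifier and catalytic subunits of the rate-limiting glutamate-cysteine ligase, fell (-0.40 ± 0.05 and -0.25 ± 0.05). The cystine transporter gene Slc7a11 did not pass (0.08). Of 3 measured genes of NADPH supply Tkt and Pgd (0.38 ± 0.06) rose. Of 8 transferases 2 rose and 4 fell. Among peroxidases, catalase and superoxide dismutases, Gpx4, which reduces lipid hydroperoxides, rose (0.44 ± 0.06, and 0.28 by its second probe set), as did the cytosolic Sod1 (0.35 ± 0.07). The mitochondrial Sod2 (-0.30 ± 0.04), Cat (-0.27 ± 0.06) and the endoplasmic reticulum peroxidase Gpx8 (-0.19 ± 0.07) fell. Srxn1, which repairs peroxiredoxins, fell (-0.27 ± 0.06), and the epoxide hydrolase gene Ephx1 rose (0.31 ± 0.05). Gpx8 (limma, adjusted p = 0.0323) missed the threshold with the arrays centred (0.109), without wild-type mock replicate 1 (0.0953) or 2 (0.0931) and without wild-type Hras replicate 1 (0.0743) or 3 (0.123). Gsta3 (-0.27 ± 0.10, limma, adjusted p = 0.0461) missed it with the arrays centred (0.105), without the null Hras GW0742 arrays (0.051), without wild-type mock replicate 1 (0.159) or 3 (0.137) and without wild-type Hras replicate 1 (0.0747), 2 (0.085) or 3 (0.117).

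**Figure D1:**
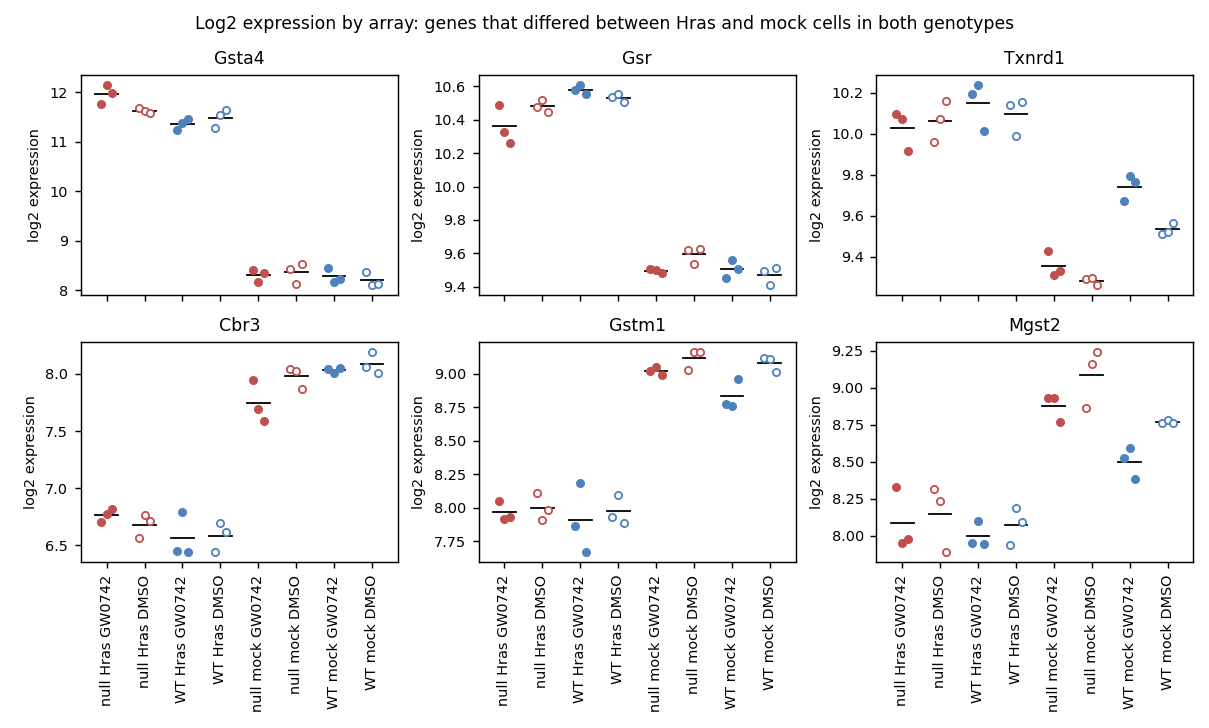
Log2 expression of 6 genes on each of the 24 arrays (points; filled for GW0742, open for DMSO; red for null, blue for wild-type), with the group mean as a line, and the 8 groups along the horizontal axis. Gsta4, Gsr and Txnrd1 lie higher, and Cbr3, Gstm1 and Mgst2 lower, on Hras than on mock arrays in both genotypes.

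In null cells with DMSO, Hras also moved 24 members, 13 up and 11 down (68.6%, where 40.7% of all genes were called, 20.2% higher and 20.5% lower). With the 40% dimmest genes left out, 26 members were called, and 3826 of 11962 genes were higher and 3712 lower, which narrowed the gap between the shares. The members' median change was -0.03 and that of all genes 0.00. Gsta4 rose 9.6-fold, and Cbr3 fell 2.46-fold. Of the genes that rose, 9 did so in both genotypes, which is 9 of 10 in wild-type and 9 of 13 in null cells. Another 9 fell in both, of 14 in wild-type and 11 in null cells. The same overlap was not counted over all genes, so these shared counts cannot be read as particular to the module. No member was called higher in one genotype and lower in the other, except Hmox1 when wild-type Hras replicate 3 was left out. Its change in wild-type cells was then -0.45 (limma, adjusted p = 0.00849), against -0.29 with all arrays, which did not pass.

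Gsta4 had 11.69, 11.62 and 11.57 in null Hras cells, against 8.43, 8.14 and 8.53 in null mock cells (3.26 ± 0.12, limma, adjusted p = 1.9e-15), a gap like that in wild-type cells. Cbr3 had 6.57, 6.77 and 6.71 in null Hras cells, against 8.04, 8.03 and 7.87 in null mock cells (-1.30 ± 0.10). Slc7a11, which imports cystine for glutathione synthesis, had 11.50, 11.60 and 11.61 in null Hras cells, against 10.75, 10.40 and 10.19 in null mock cells. All Hras arrays were higher although the mock arrays spread widely (1.12 ± 0.10, limma, adjusted p = 4.7e-09). Gstm1 had 8.11, 7.90 and 7.98 in null Hras cells, against 9.03, 9.16 and 9.16 in null mock cells (-1.12 ± 0.09). Mgst2 had 8.31, 8.24 and 7.89 in null Hras cells, against 8.86, 9.16 and 9.24 in null mock cells (-0.94 ± 0.11). The alpha-class transferase Gsta3, a dim gene, also fell clear of its mock arrays. It had 6.51, 6.25 and 6.31 in null Hras cells, against 7.40, 7.09 and 7.33 in null mock cells (-0.92 ± 0.10). Gsr had 10.47, 10.52 and 10.45 in null Hras cells, against 9.62, 9.54 and 9.63 in null mock cells (0.88 ± 0.05). Txnrd1 had 9.96, 10.07 and 10.16 in null Hras cells, against 9.29, 9.30 and 9.26 in null mock cells (0.78 ± 0.07). Both reductases thus sat higher on every Hras array. Hmox1, the haem oxygenase that frees iron and biliverdin from haem, had 11.05, 11.66 and 11.61 in null Hras cells, against 10.81, 10.71 and 10.80 in null mock cells (0.67 ± 0.13, limma, adjusted p = 0.000235). Gsto1 had 13.04, 12.92 and 12.94 in null Hras cells, against 12.45, 12.51 and 12.45 in null mock cells (0.50 ± 0.05). Nfe2l2 itself rose (0.28 ± 0.05) and Keap1 did not pass (-0.10).

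All 8 transferases passed in null cells, 3 higher and 5 lower. Of the smaller changes, Gpx1 (-0.12 ± 0.04, limma, adjusted p = 0.0273) did not pass once the arrays were centred (-0.06, adjusted p = 0.279), nor with only the arrays compared (0.156), without null mock replicate 1 (0.0921) or without null Hras replicate 2 (0.108) or 3 (0.0866). Srxn1 (-0.18 ± 0.06, adjusted p = 0.0246), whose arrays overlapped, missed the threshold with the arrays centred (0.122), with only the arrays compared (0.0941), without null mock replicate 1 (0.077) or 2 (0.125) and without null Hras replicate 2 (0.0835) or 3 (0.128). Gpx4 (0.21 ± 0.06) missed it without null Hras replicate 1 (limma, adjusted p = 0.0647) and Mgst1 (-0.33 ± 0.10) without null Hras replicate 3 (0.0533).

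**Figure D2:**
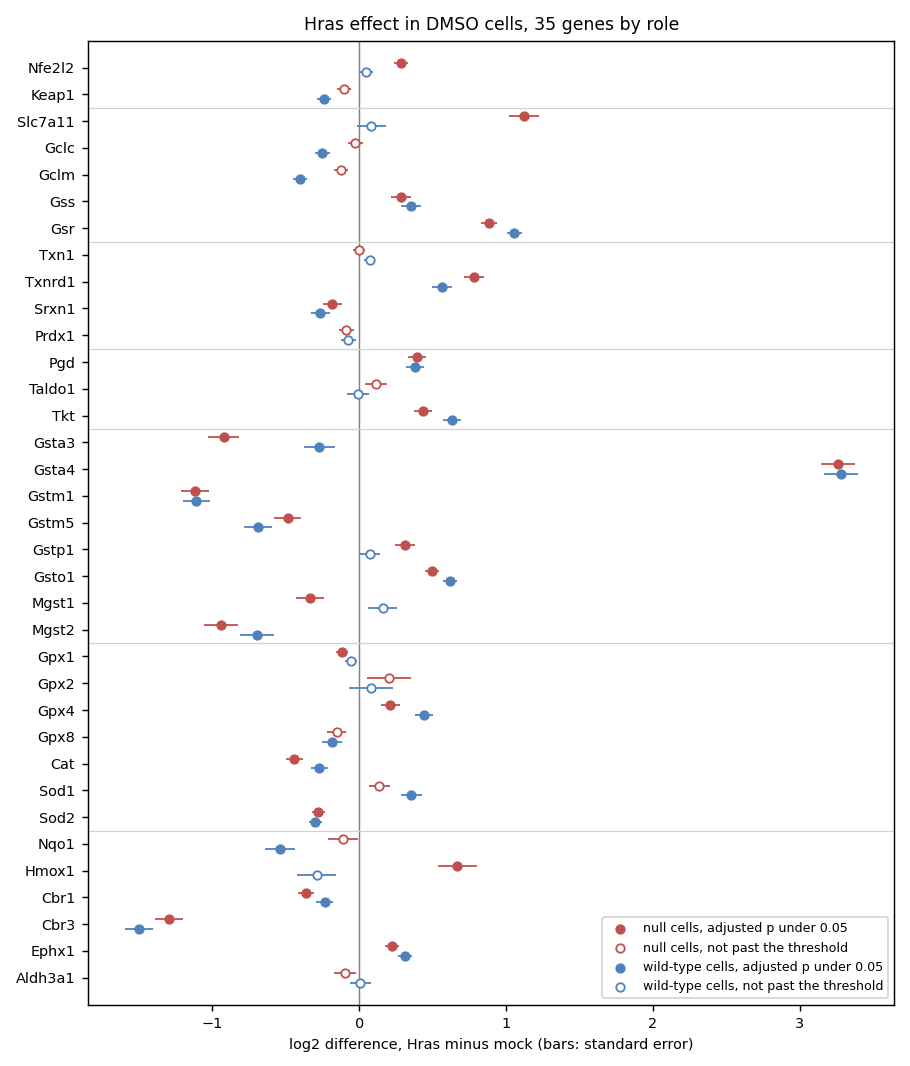
Log2 difference between Hras and mock DMSO cells for the 35 genes, grouped by role, in null (red) and wild-type (blue) cells, with standard errors as bars and filled points past the threshold. Gsta4 stands apart near 3.3 in both genotypes, while Slc7a11 and Hmox1 are higher in null than in wild-type cells.

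Among 78 other measured genes of the pathway, 25 rose and 27 fell with Hras in wild-type cells and 28 rose and 27 fell in null cells. Akr1b8, an aldo-keto reductase, rose by 2.11 ± 0.09 in null cells and by 1.71 ± 0.09 in wild-type cells. Txnip, whose product binds and inhibits thioredoxin, fell (-2.97 ± 0.14 in null cells and -1.99 ± 0.14 in wild-type cells). Gstm6, a paralog of Gstm1 and Gstm5 in the same cluster, changed by -1.47 ± 0.15 in null cells and -2.78 ± 0.15 in wild-type cells. The methionine sulfoxide reductase gene Msrb3 fell in null cells (-1.40 ± 0.08), and Cbr2, another carbonyl reductase, rose in wild-type cells (1.46 ± 0.11). Marker genes of cell types moved with Hras as well. Of 10 keratinocyte markers 7 fell and 1 rose in null cells, and 7 fell in wild-type cells, with a median of -0.30 in each. Their mean log2 expression was 12.41 to 12.43 on null Hras arrays, against 12.79 to 12.82 on null mock arrays, and 12.35 to 12.43 on wild-type Hras arrays, against 12.74 to 12.76 on wild-type mock arrays. Of 10 leukocyte and Langerhans cell markers 3 fell and 1 rose in null cells and 3 fell in wild-type cells, with the widest change in the lysozyme gene Lyz2 (-2.93 ± 0.14 in null cells and -1.87 ± 0.14 in wild-type cells). Of 6 endothelial markers 2 rose and 1 fell in each genotype. In wild-type cells all 10 fibroblast markers fell, and their mean log2 expression was 8.01 to 8.10 on Hras arrays, against 9.22 to 9.24 on mock arrays. In null cells 6 fell and 2 rose (8.19 to 8.41 on Hras arrays, against 8.59 to 8.66 on mock arrays). All 10 melanocyte markers fell in both genotypes. Their means were 8.83 to 8.96 on null Hras arrays, against 9.52 to 9.60 on null mock arrays, and 8.81 to 8.96 on wild-type Hras arrays, against 9.80 to 9.88 on wild-type mock arrays. The part of these cells in the changes of the module was not tested.

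The Hras effect itself differed between genotypes for 8 members, 6 with a more positive effect in null cells and 2 with a more negative effect (22.9%, where 16.8% of all genes passed, 8.35% positive and 8.41% negative). With the 40% dimmest genes left out, 8 members differed, and 1894 of 11962 genes differed positively and 1775 negatively. The share of members was then below that of the genes kept. The higher share with all genes therefore cannot be read as particular to the module. The largest difference among the members was that of Slc7a11, null minus wild-type, at 1.04 ± 0.14 (limma, adjusted p = 2.04e-05), with an Hras effect of 1.12 in null and 0.08 in wild-type cells. Hmox1 differed by 0.96 ± 0.19 (adjusted p = 0.000903), with 0.67 in null and -0.29 in wild-type cells. The wild-type value was -0.13 without wild-type Hras replicate 1 and -0.45 without replicate 3, and the difference between genotypes passed in both cases (0.80 and 1.12). The glutamate-cysteine ligase genes Gclm (0.28 ± 0.07) and Gclc (0.22 ± 0.07), Nqo1 (0.43 ± 0.14) and Nfe2l2 (0.23 ± 0.07) also had the more positive effect in null cells. Gsta3 (-0.65 ± 0.15) and the microsomal transferase Mgst1 (-0.49 ± 0.14) had the more negative effect in null cells. For Gsta4 the difference was -0.02 and did not pass.

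Of these 8 calls, 4 depended on single arrays. Gclc (limma, adjusted p = 0.0371) missed the threshold in a fit of just the arrays compared (0.0615), without wild-type mock replicate 3 (0.101), null mock replicate 2 (0.0515) or 3 (0.0885), wild-type Hras replicate 1 (0.062), 2 (0.0644) or 3 (0.0665), and null Hras replicate 1 (0.0965) or 2 (0.0538). Nqo1 (adjusted p = 0.0446) missed it without wild-type mock replicate 1 (0.118) or 3 (0.0663), null mock replicate 1 (0.0799) or 3 (0.112), wild-type Hras replicate 1 (0.0708), 2 (0.0816) or 3 (0.0723), and null Hras replicate 1 (0.123) or 2 (0.0972). Nfe2l2 missed it without wild-type mock replicate 1 (limma, adjusted p = 0.0591) and Mgst1 without null Hras replicate 3 (0.0506).

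Among the other pathway genes 14 differed positively and 9 negatively. Gstm6 (1.31 ± 0.22), Ggct (1.06 ± 0.15) and Chac1 (0.92 ± 0.13), the last a glutathione-degrading enzyme and with Ggct part of the gamma-glutamyl cycle, had the more positive Hras effect in null cells. Txnip had the more negative effect there (-0.98 ± 0.19). Fibroblast markers differed in the same comparison, 8 of 10 positively and 1 negatively with a median of 0.95, as did 5 of 10 melanocyte markers, all positively with a median of 0.32. Of the leukocyte markers Lyz2 (-1.06 ± 0.19) and Tyrobp (-0.42 ± 0.13) differed negatively, as did the keratinocyte marker Krt15 (-0.56 ± 0.15), and 1 of 6 endothelial markers differed positively. Their part in the differences of the module was not tested.

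**Figure D3:**
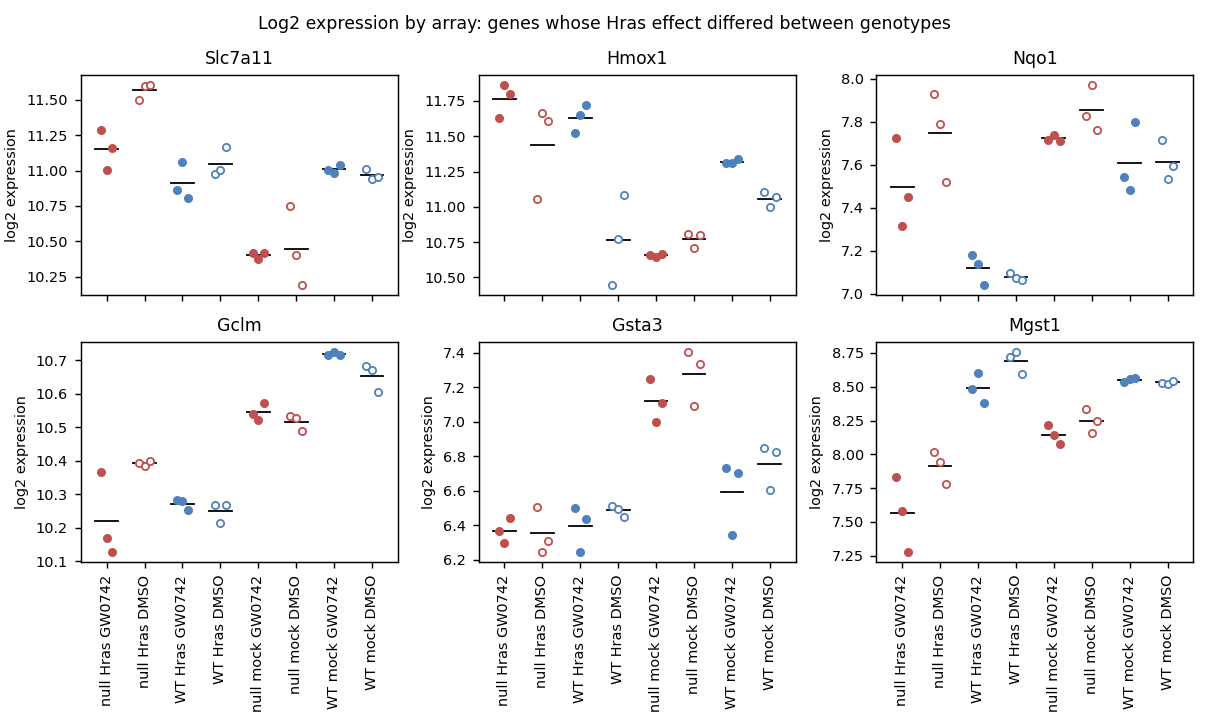
Log2 expression of 6 genes on each of the 24 arrays (points; filled for GW0742, open for DMSO; red for null, blue for wild-type), with the group mean as a line, and the 8 groups along the horizontal axis. Slc7a11 is highest on the null Hras DMSO arrays and lower on null mock than on wild-type mock arrays, and Nqo1 is lowest on wild-type Hras arrays.

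Null and wild-type cells were next compared directly. These comparisons use the same DMSO arrays as the Hras comparisons, and the difference between them is the difference tested above. In mock cells 4 members were higher and 4 lower in null cells (22.9%, where 10.4% of all genes were called, 4.89% higher and 5.53% lower), with a median of 0.10 over the members and 0.03 over all genes. With the 40% dimmest genes left out, 13 members were called, and 1029 of 11962 genes were higher and 1225 lower. Slc7a11 had 10.75, 10.40 and 10.19 in null mock cells, against 11.01, 10.94 and 10.95 in wild-type mock cells. The null arrays were all lower, and more scattered (-0.52 ± 0.10, limma, adjusted p = 0.00114). Gsta3 had 7.40, 7.09 and 7.33 in null mock cells, against 6.85, 6.61 and 6.82 in wild-type mock cells, so all null arrays were higher (0.52 ± 0.10, limma, adjusted p = 0.00186). Gpx4 had 11.15, 11.26 and 11.27 in null mock cells, against 10.92, 10.96 and 10.94 in wild-type mock cells (0.28 ± 0.06). A second probe set of Gpx4 gave a smaller difference, 0.11. Txnrd1 had 9.29, 9.30 and 9.26 in null mock cells, against 9.51, 9.52 and 9.56 in wild-type mock cells (-0.25 ± 0.07). Txnrd1 and Nfe2l2 were both lower in null mock cells, with no overlap of the groups. Nfe2l2 had 12.16, 12.17 and 12.13 in null mock cells, against 12.41, 12.25 and 12.36 in wild-type mock cells (-0.19 ± 0.05). Pgd, a dehydrogenase that makes NADPH, had 12.01, 11.94 and 11.98 in null mock cells, against 11.71, 11.77 and 11.77 in wild-type mock cells (0.22 ± 0.06). The smallest called differences were a lower Ephx1 and a higher Sod2 in null cells. Ephx1 had 11.46, 11.48 and 11.49 in null mock cells, against 11.67, 11.61 and 11.62 in wild-type mock cells (-0.16 ± 0.05). Sod2 had 11.76, 11.82 and 11.83 in null mock cells, against 11.68, 11.66 and 11.61 in wild-type mock cells (0.15 ± 0.04).

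The count of 8 was 13 with the 40% dimmest genes or with the null Hras GW0742 arrays left out, and 5 without wild-type mock replicate 1 or 3 or null mock replicate 3. Only Slc7a11, Gsta3 (which the dim-gene filter removes) and Gpx4 passed under all alternatives that tested them. Txnrd1 missed the threshold without wild-type mock replicate 3 (limma, adjusted p = 0.0693) or null mock replicate 3 (0.0661), and Nfe2l2 with only the arrays compared (0.0872) or without wild-type mock replicate 1 (0.0892). Pgd missed it without wild-type mock replicate 1 (limma, adjusted p = 0.096) or null mock replicate 1 (0.0725) or 3 (0.0648). Ephx1 missed it in a fit of just the arrays compared (limma, adjusted p = 0.0853) and without any single array of the comparison (0.0582 to 0.14). Sod2 missed it in a fit of just the arrays compared (limma, adjusted p = 0.108) and without wild-type mock replicate 2 (0.0557) or 3 (0.112) or null mock replicate 2 (0.0897) or 3 (0.0949).

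In Hras cells with DMSO 8 members were higher and 2 lower in null cells (28.6%, where 19.4% of all genes were called, 10.1% higher and 9.32% lower), with a median of 0.07 over the members and 0.02 over all genes. Without the 40% dimmest genes 13 members were called, and 2204 of 11962 genes were higher and 2001 lower. The share of members was then only a little above that of the genes kept. Mgst1 had 8.02, 7.94 and 7.78 in null Hras cells, against 8.72, 8.76 and 8.60 in wild-type Hras cells (-0.78 ± 0.10, limma, adjusted p = 5.47e-06). Nqo1 had 7.93, 7.79 and 7.52 in null Hras cells, against 7.09, 7.07 and 7.07 in wild-type Hras cells (0.67 ± 0.10, limma, adjusted p = 5.66e-05). Both genes had separate groups, with Mgst1 lower and Nqo1 higher on every null array. In mock cells Mgst1 was also lower on every null array (-0.29, limma, adjusted p = 0.0667). That difference did not pass, but did under some alternatives, such as only the arrays compared (limma, adjusted p = 0.019). Hmox1 had 11.05, 11.66 and 11.61 in null Hras cells, against 10.45, 10.77 and 11.08 in wild-type Hras cells. Its groups overlapped at null replicate 1 and wild-type replicate 3 (0.67 ± 0.13, limma, adjusted p = 0.00077), and in a fit of the 6 arrays compared it did not pass (0.0545). Slc7a11 had 11.50, 11.60 and 11.61 in null Hras cells, against 10.97, 11.00 and 11.17 in wild-type Hras cells (0.52 ± 0.10). It was thus higher in null than in wild-type cells with Hras and lower without it. Srxn1 had 10.30, 10.14 and 10.09 in null Hras cells, against 9.92, 9.93 and 9.91 in wild-type Hras cells (0.26 ± 0.06). Ephx1 had 11.78, 11.65 and 11.67 in null Hras cells, against 12.002, 11.93 and 11.90 in wild-type Hras cells (-0.24 ± 0.05). Neither of these groups overlapped.

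Pgd had 12.48, 12.33 and 12.29 in null Hras cells, against 12.20, 12.15 and 12.05 in wild-type Hras cells (0.24 ± 0.06). Taldo1, the transaldolase of the pentose phosphate pathway, had 9.59, 9.52 and 9.40 in null Hras cells, against 9.42, 9.16 and 9.23 in wild-type Hras cells (0.23 ± 0.08). Taldo1 overlapped between the groups, while Pgd did not. Gclc had 11.94, 11.83 and 11.79 in null Hras cells, against 11.65, 11.65 and 11.63 in wild-type Hras cells (0.21 ± 0.05). Sod2 had 11.52, 11.53 and 11.53 in null Hras cells, against 11.32, 11.30 and 11.43 in wild-type Hras cells (0.17 ± 0.04). With only the arrays compared 5 members passed, since Gclc (limma, adjusted p = 0.0502), Pgd (0.0634), Sod2 (0.0817), Taldo1 (0.104) and Hmox1 were lost. Pgd was also lost without wild-type Hras replicate 3 (limma, adjusted p = 0.0502) or null Hras replicate 1 (0.054). Taldo1 was lost without wild-type Hras replicate 2 (limma, adjusted p = 0.193) or 3 (0.114) or null Hras replicate 1 (0.148) or 2 (0.106).

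**Figure D4:**
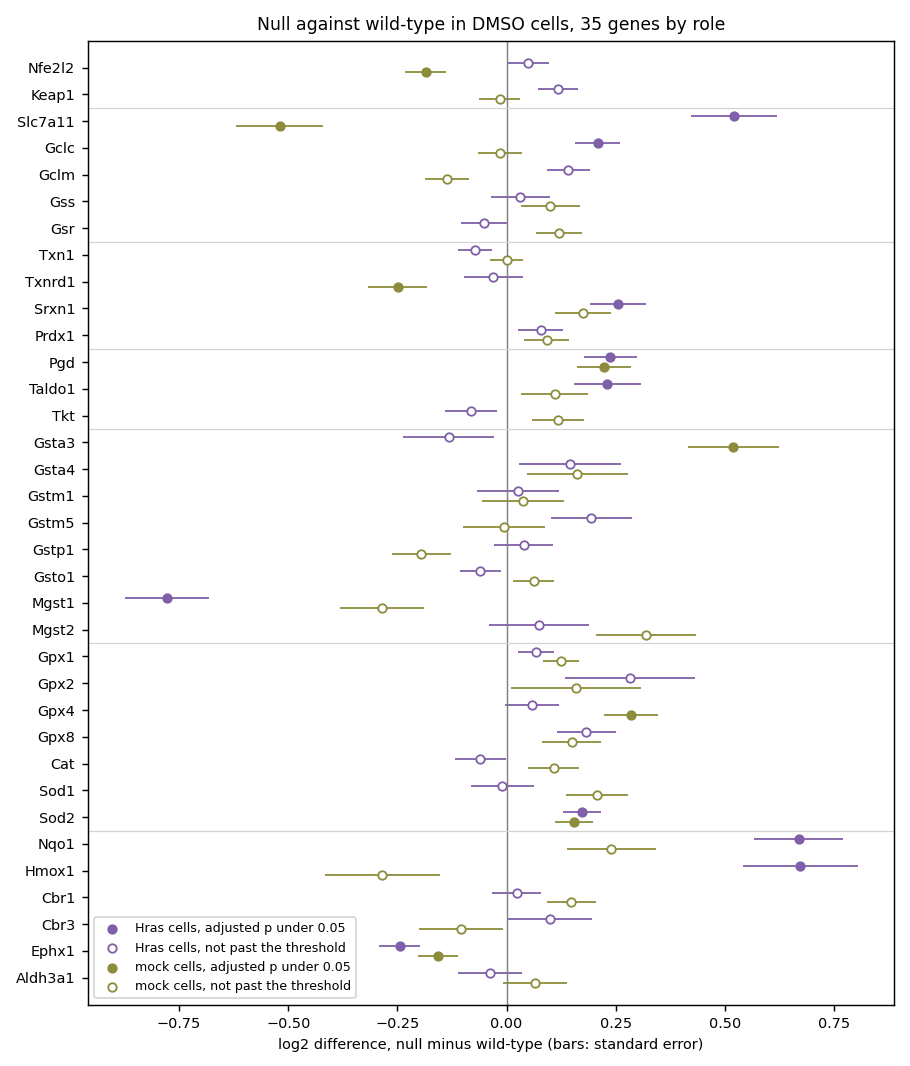
Log2 difference between null and wild-type DMSO cells for the 35 genes, grouped by role, in Hras (purple) and mock (olive) cells, with standard errors as bars and filled points past the threshold. Slc7a11 lies at -0.52 in mock and 0.52 in Hras cells, and Nqo1 and Hmox1 lie at 0.67 in Hras cells.

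Of the other pathway genes 9 were higher and 8 lower in null mock cells, and 19 were higher and 9 lower in null Hras cells. In mock cells Txnip was higher (0.90 ± 0.14) in null cells, while Ggct (-0.76 ± 0.10), Chac1 (-0.67 ± 0.09) and the glutaredoxin gene Glrx (-0.66 ± 0.15) were lower. In Hras cells Gstm6 (0.80 ± 0.15), the biliverdin reductase gene Blvrb (0.79 ± 0.07) and Maff, a small MAF protein (0.68 ± 0.10), were higher in null cells, and the transferase Gstt3 was lower (-0.61 ± 0.10). Fibroblast markers were lower in null mock cells for 8 of 10 genes and higher for 1, with means of 8.59 to 8.66 on null arrays, against 9.22 to 9.24 on wild-type arrays. In Hras cells 6 were higher and 1 lower in null cells (8.19 to 8.41 on null arrays, against 8.01 to 8.10 on wild-type arrays). Of 10 melanocyte markers 6 were lower in null mock cells and 1 in null Hras cells. In null mock cells 2 of 10 leukocyte markers were higher, Lyz2 (1.01 ± 0.14) and Tyrobp (0.44 ± 0.09), as was the keratinocyte marker Krt15 (0.41 ± 0.11), and in null Hras cells 2 markers of each of these lists were higher. Their part in the genotype differences of the module was not tested.

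The last question was what the ligand GW0742 did. In wild-type mock cells no member passed by limma, where 2.86% of all genes did (1.25% higher and 1.61% lower). An unadjusted p under 0.05 was reached by 4 members and by 2613 of the 19937 genes. The members' changes lay between -0.27 and 0.26, with a median of 0.02 against 0.00 over all genes. Hmox1 had 11.31, 11.31 and 11.34 in wild-type mock GW0742 cells, against 11.11, 11.00 and 11.07 in wild-type mock DMSO cells. The groups did not overlap, and the change of 0.26 ± 0.13 did not pass with the spread of all 24 arrays (limma, adjusted p = 0.411) but did with that of the 6 arrays compared (0.0249). Txnrd1 had 9.67, 9.79 and 9.76 with GW0742, against 9.51, 9.52 and 9.56 with DMSO, and did not pass either (0.21 ± 0.07, limma, adjusted p = 0.121). Among the other pathway genes 2 rose and 3 fell in wild-type mock cells. Osgin1, an oxidative stress response gene, rose by 0.57 ± 0.06. Oplah, which recycles oxoproline to glutamate, fell (-0.48 ± 0.08), as did Pir (-0.32 ± 0.08) and the transporter gene Abcc5 (-0.24 ± 0.06).

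In null mock cells no change with GW0742 passed for any member, nor for any of all genes (0% by limma). The lowest member change was that of Gpx4, with 11.02, 11.04 and 10.90, against 11.15, 11.26 and 11.27 with DMSO. These groups did not overlap. Of the members 4 had an unadjusted p under 0.05, as did 1097 of the 19937 genes, and the members' changes lay between -0.24 and 0.10. Hmox1 had 10.66, 10.65 and 10.66 in null mock GW0742 cells, against 10.81, 10.71 and 10.80 in null mock DMSO cells, so its null arrays were lower with the ligand (-0.12, not passing). The difference of the ligand effect between genotypes in mock cells passed for no member (0.848% of all genes, 0.286% positive and 0.562% negative). An unadjusted p under 0.05 was reached by 1 member and by 1842 of the 19937 genes. For Hmox1 the difference was -0.38 ± 0.19, null minus wild-type (limma, adjusted p = 0.558, and 0.0106 with only the 12 arrays compared). Osgin1, outside the module, passed it (-0.60 ± 0.09).

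In wild-type Hras cells GW0742 raised 2 members and lowered 2 (11.4%, where 6.11% of all genes were called, 4.46% higher and 1.65% lower), with a median of -0.01 over both the members and all genes. Without the 40% dimmest genes 5 members were called, and 1025 of 11962 genes were higher and 502 lower, so that the shares lay closer together. Hmox1 had 11.52, 11.65 and 11.72 in wild-type Hras GW0742 cells, against 10.45, 10.77 and 11.08 in wild-type Hras DMSO cells. All GW0742 arrays lay above the widely scattered DMSO arrays, a rise of 1.82-fold (0.86 ± 0.13, limma, adjusted p = 0.000126). Ephx1 had 11.62, 11.73 and 11.62 in wild-type Hras GW0742 cells, against 12.002, 11.93 and 11.90 in wild-type Hras DMSO cells (-0.29 ± 0.05, limma, adjusted p = 0.00025). Gclc had 11.46, 11.43 and 11.40 in wild-type Hras GW0742 cells, against 11.65, 11.65 and 11.63 in wild-type Hras DMSO cells (-0.21 ± 0.05, limma, adjusted p = 0.012). Ephx1 and Gclc were lower on every GW0742 array. Keap1 had 9.09, 9.12 and 9.17 in wild-type Hras GW0742 cells, against 8.95, 8.96 and 8.996 in wild-type Hras DMSO cells (0.16 ± 0.05, limma, adjusted p = 0.0477). The count of 4 was 2 with only the arrays compared and without wild-type Hras GW0742 replicate 3, where Gclc missed the threshold (limma, adjusted p = 0.0683 and 0.0702). Keap1 missed it with the arrays centred (limma, adjusted p = 0.0743), with trend and robust moderation (0.0758), with only the arrays compared (0.18), with the replicate number as a block (0.0609) and without any single array of the comparison (0.0614 to 0.207).

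Of the other pathway genes 10 rose and 2 fell with GW0742 in wild-type Hras cells. Me1, the malic enzyme that makes NADPH, rose by 0.69 ± 0.05, Maff by 0.57 ± 0.10, Osgin1 by 0.55 ± 0.06 and Akr1b8 by 0.51 ± 0.09. Of the fibroblast markers 1 rose, and no melanocyte marker passed. The ligand effect in wild-type cells differed between Hras and mock cells for 1 member, Ephx1 (Hras minus mock, -0.32 ± 0.07, limma, adjusted p = 0.00743), where 2.47% of all genes passed (2.05% positive and 0.421% negative). For Hmox1 that difference was 0.60 ± 0.19 (limma, adjusted p = 0.107), and it passed only without wild-type Hras DMSO replicate 3 (0.76, adjusted p = 0.0185), which made 2 members. With the replicate number as a block Tkt made the count 2 (-0.24, adjusted p = 0.0428). Me1 alone among the other pathway genes passed (0.51 ± 0.07).

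In null Hras cells GW0742 lowered 3 members and raised none (8.57%, where 5.02% of all genes were called, 3.51% higher and 1.51% lower), with a median of -0.08 over the members and 0.00 over all genes. Without the 40% dimmest genes 6 members were called, and 843 of 11962 genes were higher and 567 lower. Slc7a11 had 11.29, 11.01 and 11.16 in null Hras GW0742 cells, against 11.50, 11.60 and 11.61 in null Hras DMSO cells, and the groups did not overlap (-0.42 ± 0.10, limma, adjusted p = 0.0149). Mgst1 had 7.84, 7.58 and 7.28 in null Hras GW0742 cells, against 8.02, 7.94 and 7.78 in null Hras DMSO cells, and GW0742 replicate 1 overlapped with DMSO replicate 3 (-0.35 ± 0.10, adjusted p = 0.0392). Gpx4 had 11.28, 11.21 and 11.10 in null Hras GW0742 cells, against 11.55, 11.39 and 11.37 in null Hras DMSO cells, with no overlap (-0.24 ± 0.06, adjusted p = 0.0251). Gpx4 was also lower with GW0742 in wild-type Hras (-0.20, limma, adjusted p = 0.0601), null mock (-0.24) and wild-type mock cells (-0.11), none passing. Its second probe set gave -0.10, -0.02 and -0.15 there. In wild-type Hras cells Gpx4 passed under some alternatives, such as the arrays centred (limma, adjusted p = 0.0335). Hmox1 had 11.63, 11.87 and 11.80 in null Hras GW0742 cells, against 11.05, 11.66 and 11.61 in null Hras DMSO cells, where null DMSO replicate 1 stood low (0.32, and 0.13 without that array, neither passing).

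With only the 6 arrays compared none of the 3 passed (limma, adjusted p = 0.156 for Slc7a11, 0.503 for Mgst1 and 0.421 for Gpx4). In that fit no gene of all 19937 passed, so the loss is not particular to these members. The count of members was 0 without null Hras GW0742 replicate 2, 1 without GW0742 replicate 3 or null Hras DMSO replicate 1 or 2, and 9 without GW0742 replicate 1. Slc7a11 missed the threshold without DMSO replicate 2 (limma, adjusted p = 0.0513) or 3 (0.0527) or GW0742 replicate 2 (0.124). Mgst1 missed it without DMSO replicate 1 (limma, adjusted p = 0.175) or 2 (0.113) or GW0742 replicate 2 (0.123) or 3 (0.215), and without that last array its change was -0.20. Gpx4 missed it with the mean of its probe sets (limma, adjusted p = 0.0529) and without DMSO replicate 1 (0.157) or GW0742 replicate 2 (0.0799) or 3 (0.128). On the same arrays 7 of 10 melanocyte markers were higher with GW0742 (means of 9.12 to 9.31, against 8.83 to 8.96 with DMSO), and their part in these changes was not tested.

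The difference of the ligand effect between genotypes in Hras cells passed for no member by limma, where 1.73% of all genes passed (0.517% positive and 1.21% negative). An unadjusted p under 0.05 was reached by 9 members and by 2093 of the 19937 genes. Hmox1 came nearest to the adjusted threshold, at -0.54 ± 0.19, null minus wild-type (limma, adjusted p = 0.214). It passed without wild-type Hras DMSO replicate 3 (-0.70, adjusted p = 0.0473) or without null Hras DMSO replicate 1 (-0.74, adjusted p = 0.013), the arrays that stood highest and lowest in their groups. Under no other alternative run did it pass. Without wild-type Hras DMSO replicate 1, the lowest of its group, the ligand effect in wild-type cells was smaller (0.70), and so was the difference. Without null Hras GW0742 replicate 1 Gclm passed (-0.27, limma, adjusted p = 0.0115). Of the other pathway genes 4 passed, all with the less positive ligand effect in null cells: Akr1b8 (-0.62 ± 0.13), Me1 (-0.58 ± 0.07), Osgin1 (-0.54 ± 0.09) and Mafk (-0.36 ± 0.09).

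**Figure D5:**
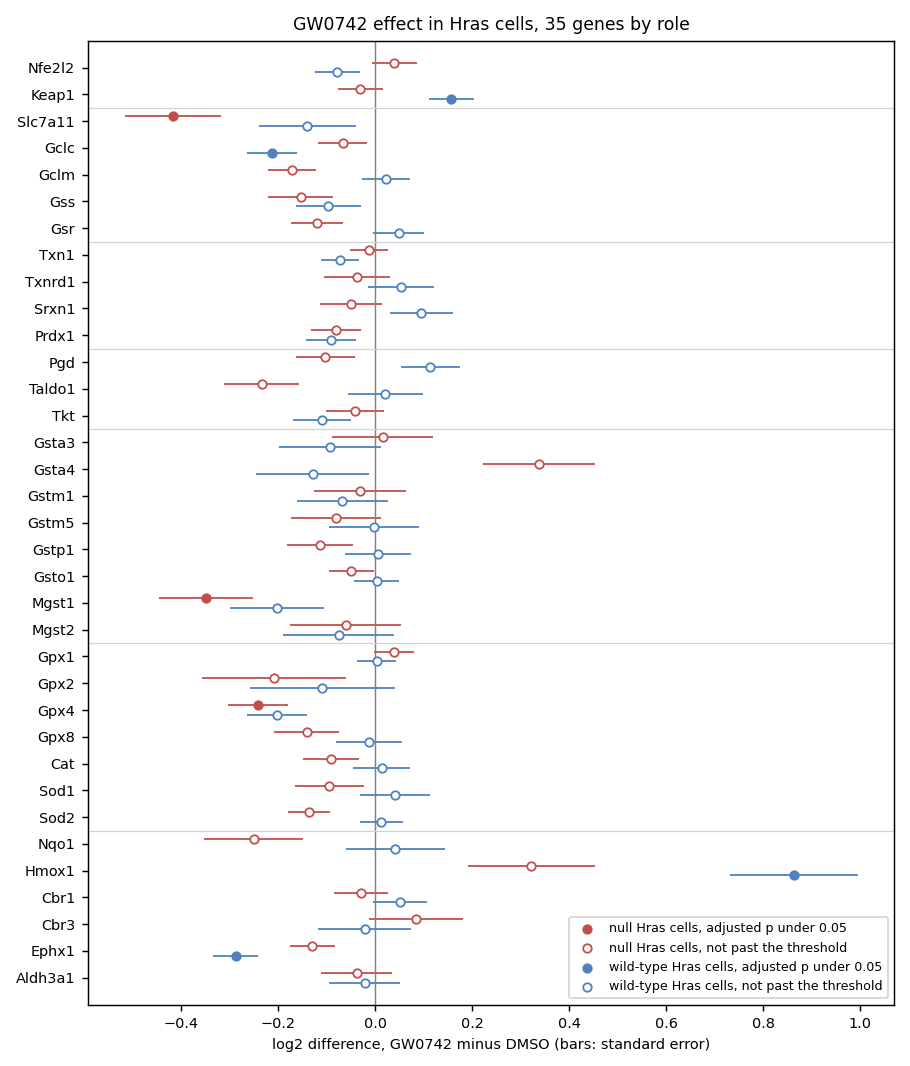
Log2 difference between GW0742 and DMSO in Hras cells for the 35 genes, grouped by role, in null (red) and wild-type (blue) cells, with standard errors as bars and filled points past the threshold. Hmox1 in wild-type cells lies at 0.86, and the called genes in null cells, Slc7a11, Mgst1 and Gpx4, lie between -0.42 and -0.24.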

How the data were processed

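Total RNA of 24 samples was hybridised to Affymetrix Mouse Gene 1.0 ST arrays. The authors deposited log2 expression values made with RMA, per the submitters' processing notes; the software version is not stated there. RMA makes the arrays' distributions alike, so an effect common to most genes cannot appear. Of 34760 probe sets, 21640 had 1 gene symbol in the platform annotation, and each of 19937 genes was represented by its probe set with the highest mean. The RefSeq symbols of all 35 measured members were unchanged. All genes and all 8 groups entered 1 limma 3.58.1 model in R 4.3.3 (16 residual and 4.43 prior degrees of freedom), which gave 12 comparisons with two-sided p-values and Benjamini-Hochberg adjustment over 19937 genes.

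The members, role groups, other pathway genes and markers were chosen with earlier results of these data known. Values in every array are given for up to 10 called members per comparison with the largest absolute change, and up to 4 called other pathway genes are named. Alternatives were arrays centred on their medians, the 40% dimmest genes left out, trend and robust moderation, the mean of a gene's probe sets, only the arrays compared, the null Hras GW0742 arrays left out, the replicate number as a block, and each array left out in turn. The procedure was tested on simulated data. The number of arrays limits the precision.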

Additional observations from a re-analysis of the deposited data

Results flagged for a closer look

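The results below are those whose effect differed between groups by a test of the difference. The Hras effect, null minus wild-type, differed for Slc7a11 (1.04), Hmox1 (0.96), Nqo1 (0.43), Gclm (0.28), Nfe2l2 (0.23), Gclc (0.22), Mgst1 (-0.49) and Gsta3 (-0.65) by limma's test over all genes. The GW0742 effect in wild-type cells, Hras minus mock, differed for Ephx1 (-0.32). Of these, Slc7a11, Hmox1, Gclm and Gsta3 (where tested) for Hras, and Ephx1 for GW0742, stayed past the threshold under every alternative run.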

How the results depend on the processing

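Of 82 member results past the threshold, 57 stayed there under every alternative run, 25 were lost under at least 1, and none turned direction. With only the arrays compared the number of members called was 5 for null against wild-type in Hras cells, 2 for GW0742 in wild-type Hras cells, 0 for GW0742 in null Hras cells, and 1 each for GW0742 in wild-type mock cells and its difference between genotypes (Hmox1 in both). With the 40% dimmest genes left out it was 13 for null against wild-type in mock cells and 6 for GW0742 in null Hras cells, and that filter removed Gsta3 and Aldh3a1 from the genes tested. In both, the members' share stood further above that of the genes kept than it did without the filter. In the other comparisons given with that filter the gap narrowed, and for the Hras effect between genotypes it reversed. Without the null Hras GW0742 arrays the number of members called was 13 for null against wild-type in mock cells. With trend and robust moderation it was 5 for GW0742 in null Hras cells. The cause of these changes was not tested. Leaving out 1 array at a time gave 22 to 23 members for Hras in wild-type cells, 22 to 25 in null cells and 6 to 9 for the difference between them. It gave 5 to 7 for null against wild-type in mock and 8 to 12 in Hras cells. For GW0742 it gave 2 to 4 in wild-type Hras cells, 0 to 9 in null Hras cells, 0 to 1 for the difference between genotypes in Hras cells and 1 to 2 for the difference between Hras and mock cells.

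Over all genes, arrays of the same replicate number showed little shared deviation. Over 84 pairs the correlation of their deviations from the group means had a median of 0.02, with 12 above 0.1. Over 168 pairs of different number the median was -0.008, with 17 above 0.1. Of 24 arrays, 11 correlated best with an array of their own number. Single genes could still move with the number: replicate 2 of Gsta3 was the lowest array in each mock group. With the replicate number as a block, the GW0742 difference between Hras and mock wild-type cells had 2 members, and no other count of members moved by over 1.5 times. With 3 arrays a group, small changes are measured with little precision.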
